A study of Mus musculus with 10 samples.

Results

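The genes described here are 69 axon guidance ligands and receptors of the mouse, measured by RNA sequencing in 3 P7 cerebella, 4 MYC/SMARCA4 tumors and 3 SHH MB. They were chosen by symbol alone, as the semaphorins of classes 3 to 7, plexins, neuropilins, Robo receptors, Slits, Eph receptors, ephrins, netrins, Unc5 receptors and Dcc, and make up 69 of the 50559 genes counted. Of them, 35 encode ligands (20 semaphorins, 8 ephrins, 4 netrins and 3 Slits) and 34 encode receptors (14 Eph receptors, 9 plexins, 5 netrin receptors, 4 Robo receptors and 2 neuropilins). All 69 had enough counts to be tested.

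MYC/SMARCA4 tumors grew in CD1nu/nu mice, which lack a thymus, after granule cell precursors (GCPs) had been transplanted into their cerebella. GCPs are the cells that proliferate in the external granule layer of the young cerebellum. The GCPs came from Math1-creERT2::Smarca4fl/fl pups, in which tamoxifen deletes Smarca4, encoding the ATPase of the SWI/SNF chromatin remodeling complex, in cells that express Math1. A lentivirus carrying murine Myc and GFP was added in culture and the cells were transplanted without sorting. Tumors 1 to 4 were labelled with ages of 112, 96, 89 and 79 days. P7 cerebella were whole cerebella of 7-day-old Math1-creERT2::Smarca4fl/fl mice that were given tamoxifen (0.4 mg) at postnatal day 3. These controls thus carry the Smarca4 deletion too, in part of their Math1 cells. In cultured GCPs of pups treated this way, the paper found SMARCA4 protein lost in only part of the cells. In the tumors it found the protein lost in all tumor cells. SHH MB came from Math1-cre::Smofl/wt mice labelled with an age of 7 days, a model of Sonic hedgehog medulloblastoma driven in Math1 cells. Tumor age, recipient strain and transplantation separate the MYC/SMARCA4 tumors from both other groups and cannot be told apart from tumor type. No tamoxifen is labelled for SHH MB. When SHH MB are compared with P7 cerebella, tamoxifen and the Smarca4 deletion of the controls thus cannot be told apart from tumor type. Where the labels do not say that samples of a group came from separate animals, p-values measure the spread between these samples alone.

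RNA came from FFPE tissue, and between 5663491 and 9352109 reads per library were assigned to genes. Myc was measured at 152, 368, 1587 and 1016 CPM (counts scaled by the normalized library size) in tumors 1 to 4, against 13.0 to 14.3 CPM in P7 cerebella and 33.7 to 45.7 CPM in SHH MB. Smarca4 was measured at 136 to 244 CPM in the tumors, 221 to 282 CPM in P7 cerebella and 491 to 590 CPM in SHH MB. These counts cover the whole gene and do not show the deleted exons. Tumor 1 stood apart, with the lowest Myc level of the 4 tumors and the highest summed levels of markers of mature granule neurons, Purkinje cells and oligodendrocytes.

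Guidance ligands are secreted or membrane-bound proteins that attract or repel growing axons and migrating neurons through receptors on the growth cone. Netrin 1 attracts through Dcc and repels through Unc5 receptors, Slits repel through Robo receptors, semaphorins signal through plexins, the secreted class with neuropilins as co-receptors, and ephrins act on Eph receptors upon contact, often in both directions. In the developing cerebellum these families steer the tangential and inward radial migration of granule cells, the targeting of mossy and climbing fibers and the growth of Purkinje cell dendrites.

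Summed over the 69 genes, tumors 1 to 4 had 3321, 4814, 2782 and 3572 CPM. P7 cerebella had 5313 to 5844 CPM and SHH MB 5514 to 6304 CPM, so all 4 tumors lay below all 6 other libraries. Receptors summed to 1754 to 3088 CPM in the tumors, 3279 to 3617 CPM in P7 cerebella and 3482 to 3971 CPM in SHH MB. Ligands summed to 1028 to 1726 CPM, 2034 to 2228 CPM and 2032 to 2334 CPM in these groups. Semaphorins had 683 to 1234 CPM in the tumors, 1604 to 1750 CPM in P7 cerebella and 1569 to 1835 CPM in SHH MB. Robo receptors (144 to 252 CPM against 328 to 377 CPM in P7 cerebella and 451 to 689 CPM in SHH MB) and netrin receptors (236 to 464 CPM against 705 to 839 CPM and 849 to 1031 CPM) were also below both other groups in every tumor. The neuropilin sum went the other way in 3 tumors (191 to 283 CPM), with tumor 1 at 54.5 CPM and P7 cerebella at 64.3 to 79.9 CPM. Within a family the genes differed. Without Dcc, the Unc5 genes summed to 356, 450, 225 and 151 CPM in tumors 1 to 4. They summed to 504 to 685 CPM in P7 cerebella and 171 to 193 CPM in SHH MB. Of the 4 Robo receptors, 2 had a fitted change above 0 against P7 cerebella. In bulk tissue, fewer cells that express a gene and less of its RNA per cell cannot be told apart.

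Divided by the summed exon length of each gene, the highest levels in P7 cerebella were those of Sema6a (68.1 ± 3.81 CPM per kb, SD, n = 3) and Plxnb2 (67.8 ± 3.75 CPM per kb, SD, n = 3), which did not differ beyond their spread. In SHH MB, Sema7a was highest (117 ± 15.3 CPM per kb, SD, n = 3), followed by Plxnb2 (71.7 ± 8.17), Sema6a (59.0 ± 6.84) and Dcc (56.1 ± 7.45). In MYC/SMARCA4 tumors, Plxnb2 (35.8 ± 18.0 CPM per kb, SD, n = 4), Sema6a (24.1 ± 9.08) and Sema7a (23.2 ± 22.8) led, with a spread that covers their order. Sema7a falls outside the rule for named genes and was chosen here for its level.

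**Figure D1:**
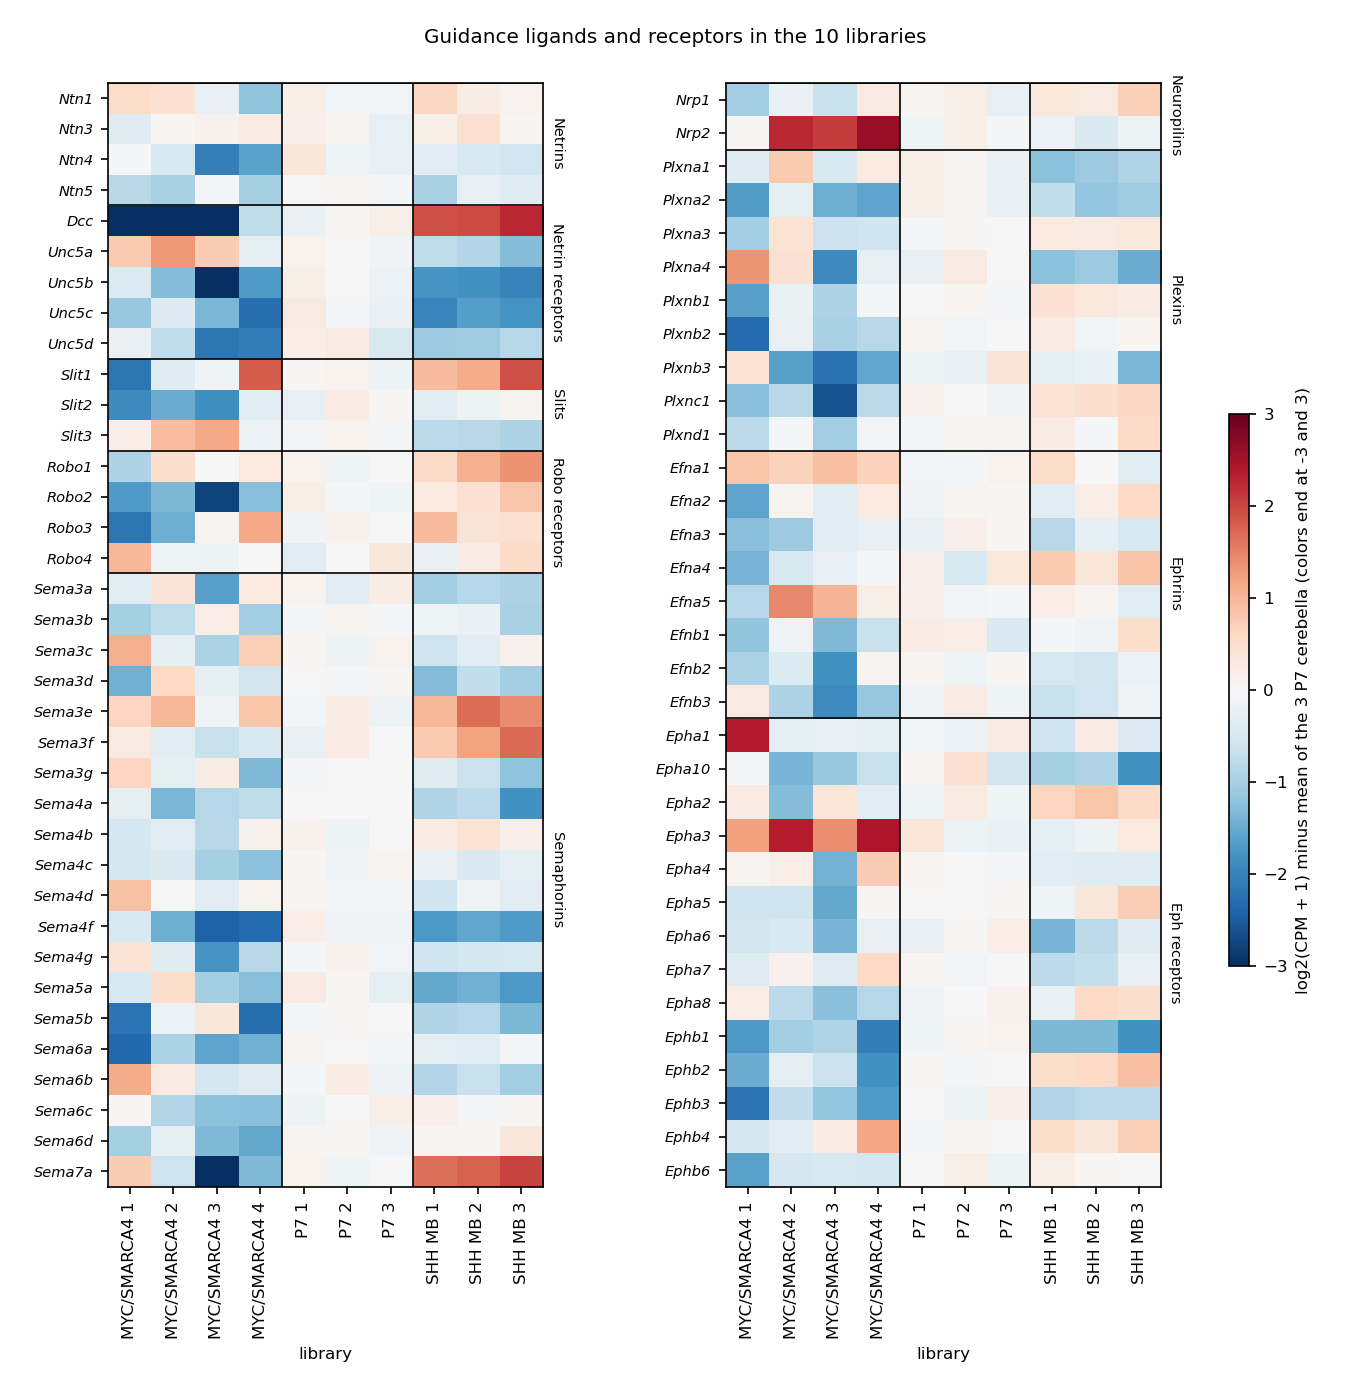
Each of the 69 genes (rows, by family) in each of the 10 libraries (columns), as log2(CPM + 1) minus the mean of the 3 P7 cerebella, with red for higher and blue for lower. The 3 P7 cerebella and the 3 SHH MB are alike within their groups, while the 4 tumors vary, Dcc is blue in the tumors and red in SHH MB, and Epha3 is red in all 4 tumors.

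In the comparison of MYC/SMARCA4 tumors with P7 cerebella, 2 genes were higher and 4 lower at an adjusted p of at most 0.05 (edgeR quasi-likelihood test over all 10 libraries, Benjamini-Hochberg adjustment over 29952 genes). Epha3 and Nrp2 were higher, while Robo2, Sema6a, Ephb1 and Ephb3 were lower. Of all genes tested, 3.99% were called higher and 2.27% lower, against 2.90% and 5.80% of members. These shares differ from the background by few genes in a list of 69. No member passed the stricter thresholds of an absolute log2 fold change of at least 2.5 with an adjusted p of at most 0.01, which 0.29% of all genes passed. At an unadjusted p of at most 0.05 there were 24 members (34.8%) against 25.2% of all genes, and DESeq2 also gave 0 at the stricter thresholds. The groups did not overlap in 22 members (20 lower and 2 higher in the tumors), 31.9% of members against 21.0% of all genes. The fitted change was below 0 in 48 of 69 members and in 51.9% of all genes, with a median log2 fold change of -0.51 against -0.05 over all genes. With only these 2 groups fitted, 0 members were called higher and 0 lower (0.206% and 0.607% of all genes).

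Against SHH MB, 4 members were higher and 6 lower in MYC/SMARCA4 tumors by the same test. Epha3, Nrp2, Unc5a and Slit3 were higher, and Dcc, Robo2, Plxnc1, Ephb2, Sema3f and Sema6a were lower. The background was 2.43% of all genes called higher and 2.26% called lower, against 5.80% and 8.70% of members. Dcc alone passed the stricter thresholds, passed by 0.601% of all genes. The groups did not overlap in 27 members (19 lower and 8 higher), 39.1% of members against 16.1% of all genes. The median log2 fold change was -0.23 over members and 0.01 over all genes. With only these 2 groups fitted, 1 member was called higher and 3 lower (0.337% and 1.15% of all genes). Both comparisons use the same 4 tumors and are not independent.

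**Figure D2:**
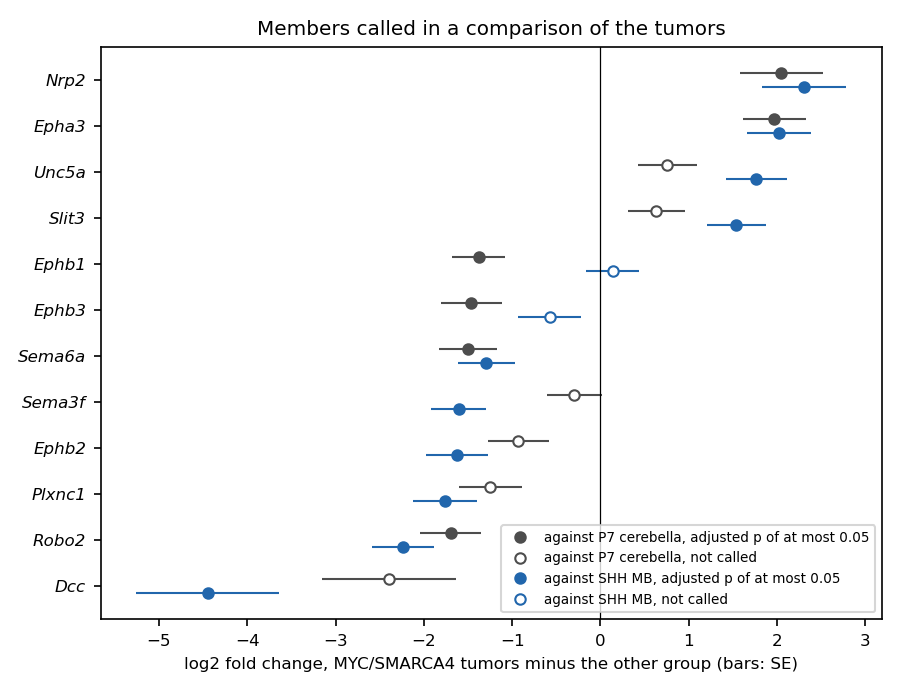
Log2 fold change with its SE (horizontal axis) of the 12 genes called in either comparison of MYC/SMARCA4 tumors, against P7 cerebella in gray and against SHH MB in blue. Filled points had an adjusted p of at most 0.05. Nrp2, Epha3, Sema6a and Robo2 are filled in both comparisons, and Dcc is farthest from 0.

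Members called against both groups are Epha3 and Nrp2, which were higher, and Robo2 and Sema6a, which were lower. Sequences of the 250 bases before an annotated start are shown for Epha3, Nrp2 and Robo2 because these genes moved the same way against both groups, and that of Sema6a is not shown here. They are from RefSeq on GRCm38.p6, a build other than that of the counts (GRCm39), and are written in the direction of the gene. Robo2 has 3 annotated starts in this table, and the printed 1 was taken because its window holds CACGTG, the E-box that MYC with MAX is known to bind, in capitals and starting 18 bases before the start. The windows are chr16:63864176-63864425 on the minus strand for Epha3, chr1:62703067-62703316 on the plus strand for Nrp2 and chr16:75447294-75447543 on the minus strand for Robo2.
Epha3: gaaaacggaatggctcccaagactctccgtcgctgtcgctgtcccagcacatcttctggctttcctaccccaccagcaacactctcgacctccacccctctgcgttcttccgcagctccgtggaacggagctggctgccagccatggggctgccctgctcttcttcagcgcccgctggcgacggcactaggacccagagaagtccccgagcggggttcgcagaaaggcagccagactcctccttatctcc
Nrp2: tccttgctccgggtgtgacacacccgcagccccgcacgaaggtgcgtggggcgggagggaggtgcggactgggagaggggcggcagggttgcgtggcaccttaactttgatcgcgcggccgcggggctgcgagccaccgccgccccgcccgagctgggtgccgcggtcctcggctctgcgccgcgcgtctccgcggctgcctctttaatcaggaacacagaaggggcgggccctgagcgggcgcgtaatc
Robo2: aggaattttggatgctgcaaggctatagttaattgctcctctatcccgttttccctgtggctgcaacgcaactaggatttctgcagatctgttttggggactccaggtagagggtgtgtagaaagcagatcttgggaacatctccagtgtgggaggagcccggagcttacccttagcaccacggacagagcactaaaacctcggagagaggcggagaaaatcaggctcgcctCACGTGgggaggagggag
Promoter windows were found for 59 of the 69 members. CACGTG, which reads the same on both strands, was present for 5 of these 59 (Epha8, Robo2, Sema3e, Sema4b and Sema6d), 8.47% against 8.09% of 27025 genes. The GLI motif GACCACCCA, searched on both strands, was present for 0 of 59, against 0.289% of genes. A match describes these letters in these windows and is not a binding site.

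Dcc, the receptor through which netrin 1 attracts axons (chromosome 18, 71386705 to 72484179 of GRCm39), had the largest difference of all members. It was measured at 4.96, 14.4, 11.2 and 104 CPM in MYC/SMARCA4 tumors 1 to 4, at 154, 181 and 201 CPM in the P7 cerebella and at 678, 690 and 854 CPM in the SHH MB. All 4 tumors were below all P7 cerebella, and all P7 cerebella were below all SHH MB. Tumor 4 lay well above the other 3 tumors. Against SHH MB, Dcc was lower by a log2 fold change of -4.45 ± 0.81 (SE; adjusted p = 0.00896, edgeR). Against P7 cerebella, the log2 fold change was -2.39 ± 0.76 and did not pass the test (adjusted p = 0.0774). Without tumor 4 these values were -6.17 (adjusted p = 0.000221) and -4.13 (adjusted p = 0.00227), and Dcc was also called against P7 cerebella without tumor 1 or tumor 3. In the comparison with SHH MB, Dcc was called with any of the 10 libraries left out, although its place past the stricter thresholds was lost without tumor 2 or without any library of the other groups.

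Unc5 receptors are related to each other and convert the response to netrin 1 into repulsion. Unc5a (chromosome 13, 55096518 to 55153833) was measured at 53.8, 77.2, 52.6 and 25.4 CPM in tumors 1 to 4, at 28.4 to 33.0 CPM in P7 cerebella and at 11.9 to 17.7 CPM in SHH MB. It was higher in every tumor than in every SHH MB (log2 fold change 1.76 ± 0.35, SE; adjusted p = 0.0142, edgeR), while tumor 4 lay below the P7 cerebella and that comparison did not pass (0.76 ± 0.33, adjusted p = 0.179). The call was lost without any 1 of the 3 SHH MB (adjusted p up to 0.119). The gene overlaps Hk3 on the opposite strand. Since the strand setting of the counting was not stated, reads of such pairs may not have been told apart. Unc5c was measured at 179, 301, 152 and 81.2 CPM in the tumors, 344 to 474 CPM in P7 cerebella and 100 to 125 CPM in SHH MB, and passed in neither comparison of the tumors (adjusted p = 0.0782 against P7 cerebella and 0.361 against SHH MB). Unc5b in the tumors ranged from 11.8 to 86.3 CPM, with log2 fold changes of -1.37 ± 0.46 (adjusted p = 0.0921) and 0.53 ± 0.47 (adjusted p = 0.573) against the 2 groups. Unc5d ranged from 8.82 to 36.7 CPM in the tumors, with log2 fold changes of -1.17 ± 0.44 and -0.09 ± 0.45.

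The ratio of Dcc CPM to the summed CPM of the 4 Unc5 genes, which is not corrected for gene length and is compared between libraries alone, was 0.0139, 0.0320, 0.0498 and 0.693 in tumors 1 to 4. It was 0.225, 0.313 and 0.398 in P7 cerebella and 3.98, 3.58 and 4.84 in SHH MB. Tumors 1 to 3 lay below all other libraries and SHH MB above them, while tumor 4 lay between P7 cerebella and SHH MB. Unc5c made up 50.3% to 67.5% of the Unc5 sum in the tumors, 65.7% to 69.1% in P7 cerebella and 58.8% to 64.7% in SHH MB. The ligand Ntn1, a secreted cue of the midline and of the developing brain, was measured at 143, 135, 83.7 and 42.1 CPM in the tumors, 91.9 to 110 CPM in P7 cerebella and 106 to 151 CPM in SHH MB. Its groups overlapped in all comparisons. The other 3 netrin genes passed no test of the tumors either, with log2 fold changes between -0.91 and 0.03 against P7 cerebella.

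**Figure D3:**
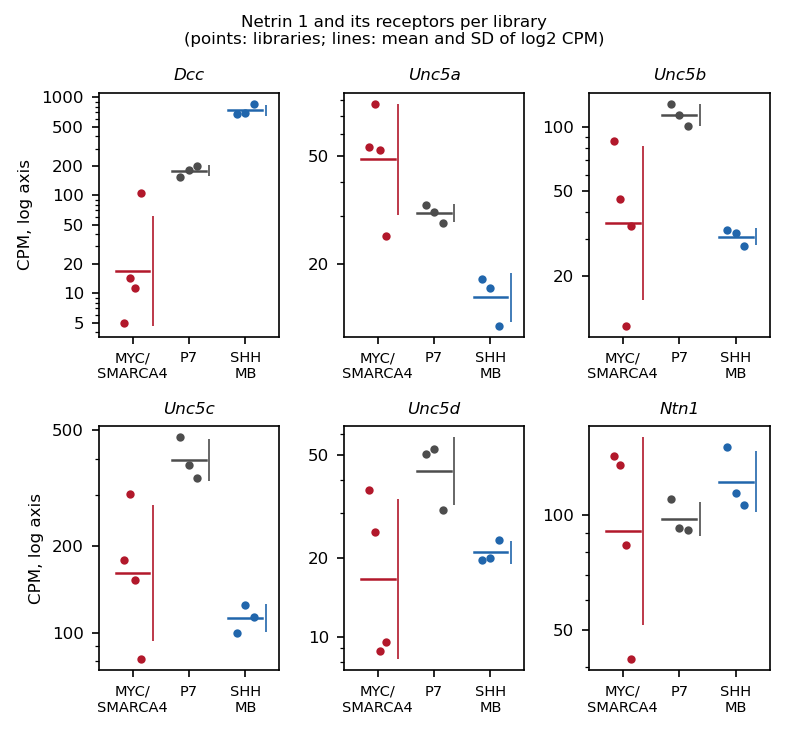
CPM on a log axis (vertical) of Dcc, the 4 Unc5 genes and Ntn1 in each library, by group (horizontal). Points are libraries, and lines give the mean and SD of log2 CPM. Dcc orders the groups as tumors, P7 cerebella and SHH MB from low to high, whereas Unc5b, Unc5c and Unc5d are highest in P7 cerebella.

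Robo2 is a receptor for Slits and keeps axons away from Slit-producing cells (chromosome 16, 73688727 to 75244270). It was measured at 65.7, 83.7, 30.4 and 87.8 CPM in the tumors, 196 to 245 CPM in P7 cerebella and 262 to 386 CPM in SHH MB, with no overlap between the tumors and either group. The log2 fold change was -2.23 ± 0.35 (SE) against SHH MB (adjusted p = 0.00355) and -1.69 ± 0.34 against P7 cerebella (adjusted p = 0.0171). The call against SHH MB held with any of the 10 libraries left out. Against P7 cerebella it was lost without any of the 3 P7 cerebella, with an adjusted p of at most 0.100. Robo1, which shares the Slit ligands with Robo2, had 56.8, 154, 109 and 133 CPM in the tumors, overlapped the P7 cerebella (99.3 to 117 CPM) and lay below SHH MB (161 to 275 CPM) without passing the test (log2 fold change -0.97 ± 0.33, adjusted p = 0.118). Robo3, known for its part in commissural axon crossing, differed widely among the tumors, with 1.24, 2.699, 9.79 and 21.5 CPM.

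The 3 Slit ligands did not move together. Slit3 (chromosome 11, 35011789 to 35602786) had 25.3, 42.1, 49.0 and 19.2 CPM in the tumors, 20.4 to 23.7 CPM in P7 cerebella and 10.9 to 12.1 CPM in SHH MB. All 4 tumors exceeded the SHH MB (log2 fold change 1.54 ± 0.33, SE; adjusted p = 0.0214, edgeR), and they overlapped the P7 cerebella. This call was lost in 5 of 10 fits that left out a library, those without tumor 2, P7 cerebellum 3 or any 1 of the 3 SHH MB (adjusted p up to 0.140). Slit2 had 8.68, 11.9, 9.09 and 28.3 CPM in the tumors against 29.4 to 41.4 CPM in P7 cerebella, without overlap and without passing the test (-1.29 ± 0.38, adjusted p = 0.0644). Slit1 spanned 3.72 to 74.3 CPM in the tumors, a range that covers all 3 P7 cerebella (18.3 to 22.1 CPM) and 2 of the 3 SHH MB (40.1 to 81.4 CPM).

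Among the semaphorins, Sema6a was lower in the tumors than in both groups. Sema6a is a transmembrane semaphorin that acts with its receptor Plxna2 in the switch of granule cells from tangential to radial migration. It lies on chromosome 18, 47368665 to 47502216. It was measured at 127, 338, 216 and 238 CPM in tumors 1 to 4, 618 to 689 CPM in P7 cerebella and 512 to 636 CPM in SHH MB, so the tumors overlapped neither group. The log2 fold change was -1.50 ± 0.33 (SE) against P7 cerebella (adjusted p = 0.0219) and -1.29 ± 0.33 against SHH MB (adjusted p = 0.0409). Both calls were lost in 7 of 10 fits that left out a library. Sema3f, a secreted ligand that signals through Nrp2, had 20.1, 12.8, 9.93 and 11.5 CPM in the tumors and 28.9, 39.2 and 55.0 CPM in SHH MB (log2 fold change -1.61 ± 0.31, adjusted p = 0.0136), and it overlapped the P7 cerebella (13.8 to 19.7 CPM). Without SHH MB 2 or 3 it was not called (adjusted p = 0.0659 and 0.119). Sema3a had 34.2, 57.2, 13.6 and 53.8 CPM in the tumors and Sema4c 26.8 to 47.3 CPM, and neither passed in a comparison of the tumors. Of the 20 semaphorins, 16 had a fitted change below 0 against P7 cerebella (51.9% of all genes did), 1 of them called, while against SHH MB 11 were above 0 and 9 below 0, with 2 called.

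Nrp2, the co-receptor of Sema3f and other class 3 semaphorins (chromosome 1, 62742444 to 62857854), had the largest increase of all members. It was measured at 39.7, 192, 171 and 245 CPM in tumors 1 to 4, at 35.4, 44.2 and 38.0 CPM in the P7 cerebella and at 34.4, 28.4 and 35.2 CPM in the SHH MB. Tumor 1 lay within the range of the P7 cerebella, and the other 3 tumors lay far above it. The log2 fold change was 2.05 ± 0.47 (SE) against P7 cerebella (adjusted p = 0.0256) and 2.31 ± 0.48 against SHH MB (adjusted p = 0.0174). Without tumor 1 these values were 2.38 (adjusted p = 7.7e-05) and 2.62 (adjusted p = 2.9e-05). The call against P7 cerebella was lost in 7 of 10 fits that left out a library and that against SHH MB in 3, those without 1 of the SHH MB. Nrp1, the co-receptor of Sema3a, had 14.9, 27.5, 19.7 and 38.4 CPM in the tumors against 26.4 to 35.7 CPM in P7 cerebella, with a log2 fold change of -0.34 ± 0.31.

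Of the 9 plexins, 7 had a fitted change below 0 in each comparison of the tumors, against 51.9% and 49.6% of all genes, and Plxnc1 was called, against SHH MB alone. Plxnc1, the receptor of Sema7a (chromosome 10, 94626728 to 94780877), had 45.1, 60.3, 16.9 and 61.4 CPM in the tumors, 100 to 118 CPM in P7 cerebella and 144 to 168 CPM in SHH MB. The log2 fold change was -1.76 ± 0.36 (SE) against SHH MB (adjusted p = 0.0176) and -1.24 ± 0.36 against P7 cerebella (adjusted p = 0.0588), and the call was lost without any 1 of the 3 SHH MB (adjusted p up to 0.105). Plxna2, the receptor of Sema6a, had 105, 279, 122 and 111 CPM in the tumors, 294 to 379 CPM in P7 cerebella and 149 to 202 CPM in SHH MB. All tumors were below the P7 cerebella without passing the test (-1.14 ± 0.35, adjusted p = 0.0735), and tumor 2 lay apart from the other 3. Plxnb2, which GCPs need for ordered proliferation and migration, had 111, 470, 280 and 310 CPM in the tumors, below 526 to 586 CPM in P7 cerebella and 523 to 656 CPM in SHH MB, with an adjusted p of 0.166 and 0.176. Plxnb1 passed in neither comparison, with log2 fold changes of -0.58 ± 0.34 and -0.91 ± 0.34. Plxna4 varied most with tumor 1, at 237 CPM there and 24.5 to 130 CPM in the other tumors, against 79.5 to 114 CPM in P7 cerebella.

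Epha3 was the Eph receptor with the largest difference. Epha3, a receptor for ephrins of the A class (chromosome 16, 63363897 to 63684538), was measured at 58.8, 131, 66.2 and 136 CPM in tumors 1 to 4, 31.7, 22.1 and 21.1 CPM in P7 cerebella and 20.1, 22.0 and 30.3 CPM in SHH MB. All 4 tumors were above all 6 other libraries. The log2 fold change was 1.97 ± 0.36 (SE) against P7 cerebella (adjusted p = 0.0114) and 2.02 ± 0.36 against SHH MB (adjusted p = 0.00807), and each call held in 8 of 10 fits that left out a library. It was lost without P7 cerebellum 2 or 3 in the first comparison, and without SHH MB 1 or 2 in the second.

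Receptors of the B class, which bind the B ephrins, were lower where they were called. Ephb1 (chromosome 9, 101799327 to 102231898) had 36.4, 58.8, 64.5 and 28.3 CPM in the tumors and 112 to 130 CPM in P7 cerebella, a log2 fold change of -1.38 ± 0.30 (SE; adjusted p = 0.0222), while the SHH MB at 33.9 to 47.1 CPM overlapped the tumors. Ephb3 (chromosome 16, 21023495 to 21042057) had 3.72, 12.1, 8.82 and 5.73 CPM in the tumors and 18.8 to 23.3 CPM in P7 cerebella (-1.46 ± 0.35, adjusted p = 0.0305). Ephb2 (chromosome 4, 136374850 to 136563351) had 63.7, 151, 115 and 51.0 CPM in the tumors, 175 to 185 CPM in P7 cerebella and 263 to 342 CPM in SHH MB. It was called against SHH MB (-1.62 ± 0.35, adjusted p = 0.0215) and not against P7 cerebella (-0.93 ± 0.35, adjusted p = 0.125), although no tumor reached the lowest P7 cerebellum. The call of Ephb1 was lost in 5 of 10 fits that left out a library (adjusted p up to 0.145), that of Ephb3 in 7 (up to 0.180) and that of Ephb2 in 5 (up to 0.130). Epha4, which binds ephrins of both classes, had 34.7, 38.2, 11.8 and 56.5 CPM in the tumors and 31.7 to 34.6 CPM in P7 cerebella, with a log2 fold change of 0.10 ± 0.39.

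None of the 8 ephrin genes was called in either comparison of the tumors by edgeR. An unadjusted p of at most 0.05 was found in 2 against P7 cerebella and 3 against SHH MB. Of all genes, 25.2% and 19.8% had such a p. DESeq2 called Efna1 higher against P7 cerebella and Efna4 lower against SHH MB, beside 9.29% and 4.09% of all genes in these directions. Efna5 had 21.8, 112, 83.5 and 45.7 CPM in the tumors, 38.0 to 44.9 CPM in P7 cerebella and 32.4 to 46.4 CPM in SHH MB, with tumor 1 below both groups, tumors 2 and 3 above them and tumor 4 within the range of SHH MB (log2 fold change 0.70 ± 0.43, adjusted p = 0.312 against P7 cerebella). Efnb1 had 7.70 to 19.4 CPM, Efnb2 18.6 to 71.6 CPM and Efnb3 13.7 to 64.7 CPM in the tumors, with log2 fold changes against P7 cerebella of -0.82 ± 0.35, -0.62 ± 0.36 and -0.74 ± 0.41. The levels of Efna1, named after its values were seen, were low and close together in the tumors, at 7.20 to 8.40 CPM, above 3.78 to 4.42 CPM in P7 cerebella and 2.98 to 6.38 CPM in SHH MB.

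**Figure D4:**
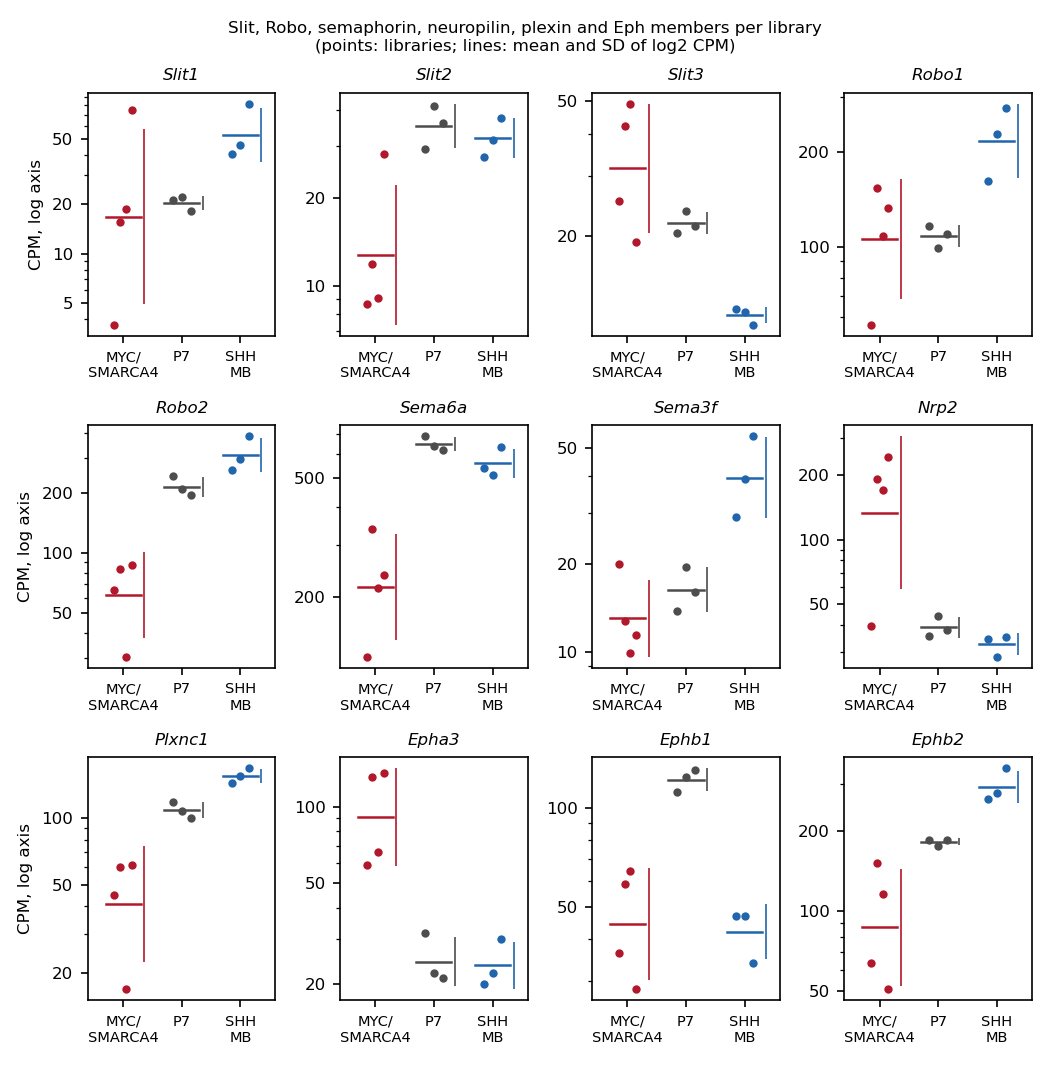
CPM on a log axis (vertical) in each library, by group (horizontal), for 12 members of the Slit, Robo, semaphorin, neuropilin, plexin and Eph families. Points are libraries, and lines give the mean and SD of log2 CPM. Epha3 in all 4 tumors and Nrp2 in 3 of 4 lie above every other library, and Robo2 and Sema6a lie below them in all 4.

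SHH MB differed from P7 cerebella in many members when these 6 libraries were fitted on their own, with 17 genes higher and 25 lower (edgeR, 29018 genes tested). Of all genes, 13.4% were called higher and 10.3% lower in this fit. In the fit of all 10 libraries no member was called (0.177% of all genes higher and 0.0467% lower), 23 had an unadjusted p of at most 0.05 (33.3%, against 8.80% of all genes), and DESeq2 called 2 higher and 5 lower (1.72% and 0.669% of all genes with an adjusted p). The common dispersion was 0.178 with the tumors and 0.0264 without them. None passed the stricter thresholds in the fit of 10 libraries, passed by 0.01% of all genes. Without regard to a model, the 2 groups did not overlap in 48 members (17 higher and 31 lower in SHH MB), against 36.8% of all genes. Leaving out any of the 6 libraries gave 13 or 14 higher and 21 to 24 lower. The values that follow are from the fit of 6 libraries.

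Dcc was higher in SHH MB by a log2 fold change of 2.08 ± 0.13 (SE; adjusted p = 4.1e-12, edgeR), whereas all 4 Unc5 genes were lower. Unc5b was measured at 27.7 to 32.8 CPM in SHH MB and 101 to 128 CPM in P7 cerebella, a log2 fold change of -1.88 ± 0.13 (adjusted p = 2.3e-11). The changes of Unc5c (-1.80 ± 0.13), Unc5d (-1.06 ± 0.18) and Unc5a (-0.99 ± 0.17) went the same way. Ntn1 was at the border of the test, with a log2 fold change of 0.36 ± 0.13 (adjusted p = 0.0497) and overlapping groups.

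Robo1 (1.05 ± 0.14), Robo2 (0.56 ± 0.13) and Robo3 (0.69 ± 0.21) were higher in SHH MB, as was Slit1 (1.46 ± 0.19), with Slit3 lower (-0.88 ± 0.18) and Slit2 not called (-0.12 ± 0.16). Of the 20 semaphorins, 3 were higher and 9 lower. The 3 that rose were Sema7a (346 to 444 CPM against 99.3 to 117 CPM), Sema3e (24.4 to 39.6 CPM against 10.6 to 13.97 CPM) and Sema3f (28.9 to 55.0 CPM against 13.8 to 19.7 CPM). The largest decreases were those of Sema4f (20.1 to 22.5 CPM against 63.3 to 79.0 CPM) and Sema5a (29.3 to 35.2 CPM against 80.2 to 118 CPM). Sema7a, Sema3e, Sema4f and Sema5a were named after their values were seen. Sema3a fell as well (-0.96 ± 0.16), while Sema6a (-0.19 ± 0.12) and Sema4c (-0.30 ± 0.13) were not called.

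Of the plexins 3 were lower and 3 higher, with Plxna1, Plxna2 (-0.97 ± 0.13) and Plxna4 (-1.27 ± 0.14) lower and Plxna3, Plxnb1 (0.35 ± 0.12) and Plxnc1 (0.54 ± 0.12) higher, and Plxnb2 was not called (0.10 ± 0.12). Plxna1 and Plxna3 fall outside the rule for named genes. Nrp1 was higher (0.47 ± 0.16), and Nrp2 was not called (-0.24 ± 0.15). Among Eph receptors 3 were higher and 5 lower, led by Ephb1 (-1.49 ± 0.14) and opposed by Ephb2 (0.72 ± 0.12), and Epha4 was not called (-0.34 ± 0.15). Of the ephrins 1 was higher and 2 lower, with small changes in Efnb2 (-0.38 ± 0.13) and Efnb3 (-0.42 ± 0.15), while Efnb1 and Efna5 had log2 fold changes of 0.14 ± 0.20 and 0.02 ± 0.15. The groups overlapped in Efnb3. Calls of Plxna3 and Efnb2 held in 1 of 9 alternatives of this fit and those of Plxnb1 and Efnb3 in 4 of 9. Calls of Plxnc1 and Ephb1 held in 9 of 9.

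**Figure D5:**
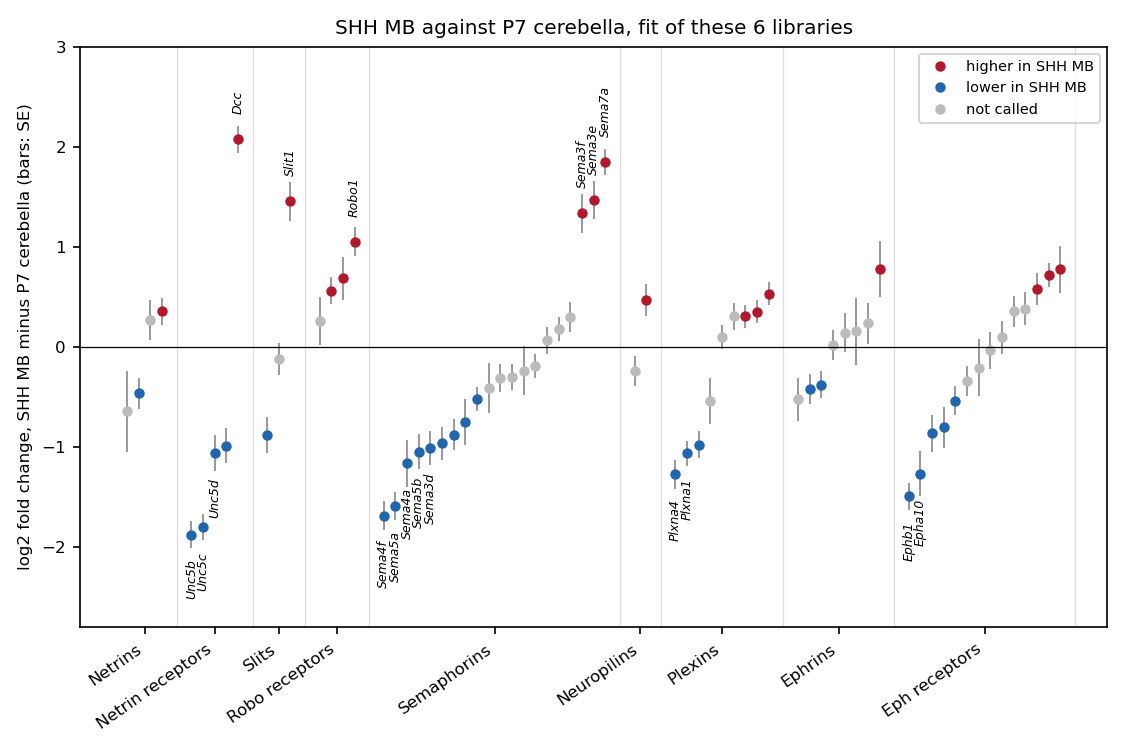
Log2 fold change with its SE (vertical) of SHH MB against P7 cerebella in the fit of 6 libraries, for the 69 genes by family (horizontal), with red for called higher, blue for called lower and gray for not called. Genes with an absolute change of at least 1 are named. Dcc lies above 2 and the 4 Unc5 genes lie below 0.

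Genes next to these families were counted in 2 further lists. Of 16 other guidance receptors and ligands, 2 were lower in MYC/SMARCA4 tumors against P7 cerebella and the others were not called, and 1 was higher and 3 lower against SHH MB, beside the 3.99% and 2.27% of all genes called higher and lower in the first comparison and the 2.43% and 2.26% in the second. Islr2, a membrane protein of growing axons, had 28, 71, 168 and 93 counts in tumors 1 to 4, against 1601 to 2176 counts in P7 cerebella and 2144 to 2681 counts in SHH MB (log2 fold change -3.96 ± 0.37 and -4.56 ± 0.38, adjusted p = 0.000273 and 6.1e-05). Rgma, a ligand of neogenin, was lower in both (-1.44 ± 0.37 and -1.999 ± 0.37). Draxin, a secreted repellent that binds Dcc, had 13, 323, 586 and 203 counts in the tumors and 3760 to 5199 counts in SHH MB (-3.92 ± 0.69, adjusted p = 0.00736), and Flrt1 was higher against SHH MB (1.35 ± 0.29).

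Of 40 cytoplasmic effectors, which carry receptor signals to the cytoskeleton, 2 were higher and 2 lower against P7 cerebella, and 3 were higher and 3 lower against SHH MB. The background of 2.26% to 3.99% of all genes per direction differs from these counts by few genes in a list of 40. Mical2, an enzyme that oxidizes actin downstream of plexins, was higher in both (2.13 ± 0.33 and 1.77 ± 0.33), and so was Chn1, a Rac GTPase-activating protein downstream of Eph receptors (1.46 ± 0.28 and 1.56 ± 0.28). Dpysl5, of the collapsin response mediator family, was lower in both (-1.94 ± 0.35 and -1.66 ± 0.35), and Dpysl3 was lower against P7 cerebella (-2.65 ± 0.57). Chn2 was higher and Mical1 and Pak3 lower against SHH MB. Chn2 had 3346 counts in tumor 1 and 304 to 1688 in the others.

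Markers of other cell types differed between the groups and among the tumors. Summed over 6 markers, mature granule neurons had 3776, 1173, 138 and 668 CPM in tumors 1 to 4, against 480 to 602 CPM in P7 cerebella and 146 to 234 CPM in SHH MB, and 3 of the 6 were called higher against P7 cerebella and 4 against SHH MB. The 7 Purkinje cell markers summed to 11665, 2800, 368 and 1969 CPM in the tumors, 1482 to 1619 CPM in P7 cerebella and 443 to 719 CPM in SHH MB. The 7 markers of myelinating oligodendrocytes summed to 3997, 812, 110 and 440 CPM in the tumors, against 953 to 1130 CPM and 127 to 394 CPM. Tumor 1 was highest and tumor 3 lowest in all 3 lists. The 7 markers of astrocytes and Bergmann glia ranged from 484 to 2551 CPM in the tumors and from 2104 to 2170 CPM in P7 cerebella, with 3 called lower, and the 4 markers of oligodendrocyte precursors from 48.6 to 171 CPM and from 184 to 208 CPM, with 2 called lower. The 7 endothelial markers had 342, 148, 78.1 and 123 CPM in the tumors and 148 to 160 CPM in P7 cerebella, and the 7 microglial markers 41.3 to 148 CPM and 68.6 to 71.5 CPM. Markers of fibroblasts, pericytes and meninges ranged from 153 to 447 CPM in the tumors and from 410 to 449 CPM in P7 cerebella. The 7 GCP markers summed to 1335 to 1901 CPM in the tumors, 1877 to 2005 CPM in P7 cerebella and 3031 to 3662 CPM in SHH MB. In the tumors, 1 of them was called lower against P7 cerebella and 1 against SHH MB, and 0 were called higher. No marker was at 0 in all libraries of a group. The part of these cells in the differences of the guidance genes was not tested.

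Without tumor 1, the library with the most mature markers, 3 members were higher and 17 lower against P7 cerebella, and 6 higher and 11 lower against SHH MB, and all calls made with tumor 1 were kept. Of all genes, 11.1% were then called higher and 4.997% lower in the first comparison, and 5.91% and 3.86% in the second. Without tumor 3, which had the fewest, there were 2 higher and 21 lower against P7 cerebella, and 9 higher and 14 lower against SHH MB, again with all calls kept. The shares of all genes were then 11.8% higher and 22.8% lower against P7 cerebella, and 9.57% higher and 13.9% lower against SHH MB. Without P7 cerebellum 2 or 3 no member was called against P7 cerebella, and without SHH MB 1 or 2 no member was called higher against SHH MB. Few genes of any kind were called there. Against P7 cerebella, 0.100% of all genes were higher and 0.369% lower without P7 cerebellum 2, and 0.124% and 0.505% without P7 cerebellum 3. Against SHH MB, 0.174% and 0.188% of all genes were higher without SHH MB 1 and 2.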

How the data were processed

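The authors extracted RNA from FFPE punches, depleted ribosomal RNA, prepared CORALL libraries, and sequenced single-end reads. According to their notes, reads were trimmed (Trimmomatic 0.38.1), aligned to GRCm39 (STAR 2.7.8a) and counted (featureCounts 2.0.1). The counts deposited per gene and library are whole numbers without normalization. The strand setting was not given in the sources used here. The authors also deposited VST values on a log2 scale (DESeq2), used in 1 alternative.

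Groups follow the labels. Counts of all 10 libraries were fitted with edgeR 4.0.16 in R 4.3.3 (quasi-likelihood test, TMM factors of 0.619 to 1.28, filterByExpr by group), and p-values were adjusted over 29952 genes. A member was called at an adjusted p of at most 0.05. SHH MB and P7 cerebella were also fitted without the tumors, with alternatives chosen after seeing the data. CPM values use TMM library sizes, and 3 counts correspond to 0.307 to 0.744 CPM. This floor covers counting error only.

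The members and lists were chosen with earlier results of these data known. In each comparison, members called are named (up to 12 in each direction), with 28 ligands and receptors of known cerebellar roles, whatever their values. Alternatives were DESeq2 1.42.0, limma 3.58.1 on the VST values, other size factors, filters, thresholds and library sets, robust estimation and a replicate block. The statistics were tested on simulated data in which all groups shared the same spread. That cannot show how they behave where the tumors vary more than the other groups. Gene positions are from GENCODE vM39.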

Additional observations from a re-analysis of the deposited data

Results flagged for a closer look

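Plxna2 in the MYC/SMARCA4 tumors had a library far from the others. Tumor 2 was highest at 279 CPM, against 105, 122 and 111 CPM in tumors 1, 3 and 4. The gap to the nearest tumor took up 0.850 of the range of log2 CPM, above the 95% critical value of Dixon's test for 4 samples. It was 1 of 32 genes checked in this group, and chance flags about 1 in 20.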

How the results depend on the processing

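Of 1688 alternative values, 1488 kept their direction and their side of the threshold, 88 lost a call, 67 gained one and 45 changed sign. They belong to 89 reported values, most of them not called, so most could not lose a call. No called change was among the 45, which came from 12 gene values and had an adjusted p of at least 0.334 under the alternative. Counts of calls moved more, and the cause was not tested. Against P7 cerebella, the 2 higher calls became 0 with only these 2 groups fitted, 0 at an adjusted p of at most 0.01 and 1 with limma on VST values, and the 4 lower calls became 0, 0 and 5 there, 15 with at least 10 counts required in every library and 8 with DESeq2. Shares over all genes moved too. Lower calls were 2.27% of all genes as reported, 0.607% with only these groups and 1.23% with VST values. They were 6.61% with at least 10 counts and 4.08% with DESeq2. Leaving out a library gave 0 to 3 higher, 0 to 21 lower and 0 to 1 past the stricter thresholds. Over all genes these fits called 0.100% to 11.8% higher and 0.369% to 22.8% lower. Against SHH MB, the 4 higher calls became 1 with only these 2 groups fitted, 8 with DESeq2 and 1 at an adjusted p of at most 0.01, the 6 lower calls became 3 with only these groups, 16 with at least 10 counts and 2 at the lower threshold, and the 1 past the stricter thresholds became 0 with only these groups, 0 with DESeq2 (which gave no adjusted p for Dcc) and 3 with 1.5 as the smallest log2 fold change. Higher calls were 2.43% of all genes as reported, 0.337% with only these groups and 7.87% with DESeq2. Lower calls were 2.26%, 1.15% with only these groups and 6.06% with at least 10 counts. Leaving out a library gave 0 to 9 higher, 2 to 14 lower and 0 to 3 past the stricter thresholds. Over all genes these fits called 0.166% to 9.57% higher and 0.789% to 13.9% lower. For SHH MB against P7 cerebella, 0 and 0 became 17 higher and 25 lower with these 2 groups alone, 2 and 5 with DESeq2, and 1 higher with at least 10 counts, and leaving out a library gave 0 to 3 higher and 0 to 4 lower. Of all genes, 13.4% and 10.3% were called with these groups alone, 1.72% and 0.669% with DESeq2. With at least 10 counts, 0.487% were called higher. Leaving out a library gave 0% to 2.30% higher and 0% to 0.874% lower over all genes. In the fit of 6 libraries, the 17 and 25 calls were 13 to 14 and 21 to 24 without a library, and 14 to 17 and 21 to 24 under the other alternatives.

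The changes of sign were these. Against P7 cerebella they concerned Epha4, Ntn1, Plxna4, Robo1, Robo3 and Slit1 (0.10, 0.04, 0.30, 0.06, -0.03 and 0.46 as reported). At least 10 counts in every library gave -0.24, -0.24, -0.080 and -0.18 for the first 4, fitting only the 2 groups -0.044, -0.079 and -0.012 for Epha4, Ntn1 and Robo1, and VST values -0.039, -0.055, -0.039 and -0.14 for Epha4, Ntn1, Plxna4 and Slit1. No filter gave 0.043 for Robo3, and the replicate block -0.33, -0.13 and -0.89 for Epha4, Robo1 and Slit1. Without 1 library these 6 genes spanned -0.34 to 0.23, -0.17 to 0.20, -0.28 to 0.47, -0.12 to 0.29, -0.92 to 0.33 and -0.66 to 0.84. Against SHH MB, Ephb1 (0.14), Unc5b (0.53) and Unc5d (-0.09) spanned -0.18 to 0.30, -0.013 to 0.66 and -0.57 to 0.020 without 1 library. For SHH MB against P7 cerebella, Efna5 (-0.002), Efnb1 (0.13) and Slit2 (-0.14) spanned -0.077 to 0.17, -0.071 to 0.26 and -0.26 to 0.013. Efna5 was also 0.030 with RLE size factors, 0.048 with no filter, 0.019 with only the 2 groups, 0.020 with library sizes without mitochondrial and rRNA-like genes, 0.039 with DESeq2 and 0.015 with VST values.

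Same-numbered libraries did not deviate together (correlations of -0.27 to 0.16), so the numbers were not taken to pair samples. With the replicate block, in which tumor 4 has no partner, 0 members were called higher and 2 lower (Dcc and Slit2) against P7 cerebella. Of all genes, 0.551% were called higher and 0.684% lower there. The stricter thresholds were passed by 1 member and by 21 of 29952 genes. Against SHH MB, 2 members were higher and 5 lower, beside 0.771% and 1.34% of all genes.

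All-gene medians shifted by more than 0.1 (log2) against P7 cerebella (from -0.05) with no filter on low counts (-0.25), DESeq2 (-0.26), VST values (-0.23), without tumor 1 (-0.16), without tumor 3 (-0.18) and, upward, with at least 10 counts in every library (0.07). Against SHH MB (from 0.01) they did so with no filter (-0.11), DESeq2 (-0.10), VST values (-0.15) and without tumor 3 (-0.18). Depth limits genes of few counts, such as Ephb3, Robo3 and Slit1 with 15, 5 and 15 counts in tumor 1.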

Other observations

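Epha1 was high in a single library, with 41.1 CPM in tumor 1 against 5.58, 5.88 and 5.73 CPM in tumors 2 to 4, 6.22 to 8.70 CPM in P7 cerebella and 4.36 to 8.48 CPM in SHH MB. The gene overlaps Zyx, and it was named after its values were seen. Sema7a, the ligand of Plxnc1, had 184, 70.9, 9.79 and 43.2 CPM in tumors 1 to 4, against 99.3 to 117 CPM in P7 cerebella and 346 to 444 CPM in SHH MB, and its change against SHH MB did not pass the test (log2 fold change -2.34 ± 0.64, adjusted p = 0.0571, edgeR). The order of the tumors in Sema7a and Plxna4 (237, 130, 24.5 and 79.3 CPM) was that of the mature granule neuron markers. These genes were chosen after their values were seen, and no relation was tested.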
